A study of Mus musculus with 24 samples.

Results

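Cerebella of SCA1 mice were compared with those of both mouse genotypes that carry the expanded Atxn1 allele with alanine in place of the serine S776 (S776A). The comparison held 12 mice of the 24 in the series, with 4 SCA1 mice on one side and 8 mice on the other. The mice were chosen by their genotype labels alone, and all 12 were placed in 1 sequencing batch by the technical shares of their libraries. The question was which cerebellar transcripts differ between an expanded ATXN1 that can be phosphorylated at S776 and one that cannot, in whichever form the second allele is present.

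SCA1 mice carry Atxn1_154Q/2Q, a knock-in allele with an expanded CAG repeat and an unexpanded allele. SCA1 S776A mice (Atxn1_154Q[S776A]/2Q, 4 mice) carry the alanine on the expanded allele only. S776A double mice (Atxn1_154Q[S776A]/2Q[S776A], 4 mice) carry it on both alleles. These 8 mice are called the pooled S776A mice here. All 12 mice share the expanded repeat, were 6 weeks old and were untreated as far as the labels give it. The WT (Atxn1_2Q/2Q, 8 mice) and WT S776A homozygous mice (Atxn1_2Q[S776A]/2Q[S776A], 4 mice) serve to place the levels. They also enter the fit that estimates the spread between mice. Per the study's methods, the S776A alleles were made by CRISPR/Cas9 editing together with synonymous substitutions, in lines kept on C57BL/6J. The methods give separate minimum numbers of backcross generations to C57BL/6J for SCA1 mice and, after editing, for the edited lines. Line history of this kind and genotype cannot be told apart. The labels do not give the founder line or the sex of a mouse. The animal tag numbers in the labels were all lower in SCA1 mice than in the pooled S776A mice. What else follows those numbers, such as litter or time of collection, and genotype cannot be told apart.

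ATXN1 is a nuclear protein that binds the transcriptional repressor Capicua and other regulators, and expansion of its polyglutamine tract causes spinocerebellar ataxia type 1, in which cerebellar Purkinje cells are among the most affected cells. Phosphorylated S776 is bound by 14-3-3 proteins, which stabilizes ATXN1, so that replacing the serine by alanine lowers the amount of protein. Purkinje cells are the only output neurons of the cerebellar cortex, and their synapses with parallel fibers signal through glutamate receptors, phospholipase C and the inositol trisphosphate receptor.

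The edited codon is shown first because it is the only designed difference between SCA1 and SCA1 S776A mice that alters the protein. It lies in exon 8 of 8 of Atxn1, in the coding sequence, at chr13:45557178-45557180 of GRCm38 on the minus strand. It is codon 751 of the mouse protein of 791 residues, and S776 is its name by the human protein. The unedited reference sequence of the coding strand is given from GENCODE M21 for chr13:45557133-45557225, with the serine codon in capitals.
Atxn1 S776 codon: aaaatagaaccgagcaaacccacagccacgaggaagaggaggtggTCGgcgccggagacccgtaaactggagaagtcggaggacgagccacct

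Atxn1 RNA itself was measured at 55.2, 58.3, 63.9 and 57.9 CPM (counts relative to all fragments on genes, scaled by TMM) in the 4 SCA1 mice. It was 61.1, 62.0, 55.3 and 67.0 CPM in the SCA1 S776A mice and 69.5, 65.1, 63.3 and 50.3 CPM in the S776A double mice. The groups overlapped, with the lowest and the highest of the 12 values both in S776A double mice. The log2 fold change of the pooled S776A mice over SCA1 mice was 0.07 (SE, the standard error, 0.07, 95% interval -0.08 to 0.22), and an exact two-sided permutation test of 4 against 8 mice gave p = 0.457. The reads of the 2 alleles were not separated. The paralog Atxn1l (log2 fold change -0.01, SE 0.07) and Cic, which encodes Capicua (0.09, SE 0.20), had differences within their standard errors.

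Each of the 12 libraries held between 83096869 and 112353148 fragments, of which 62163600 to 85575119 were counted on genes, and mitochondrial genes took 3.01% to 3.97% of them. In all 24 mice, 22502 genes were tested by quasi-likelihood in edgeR, and each adjusted p is from that fit, with the Benjamini-Hochberg method over all of them. Between mice of one genotype the biological coefficient of variation had a median of 12.5%. The standard error of the log2 fold change had a median of 0.12, and the median absolute log2 fold change over all genes was 0.07. One of the S776A double mice had 830 CPM of Xist and 0.246 CPM of the Y-linked gene Ddx3y, whereas the other 11 mice had at most 1.04 CPM of Xist.

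A single gene passed the study's thresholds, which ask for an adjusted p below 0.01 and a log2 fold change beyond 0.5 in either direction. The noncoding RNA gene Gm15083 was lower in SCA1 mice and 2.28-fold higher in the pooled S776A mice. This is 1 of 22502 genes, or 0.00444%, with SCA1 mice lower, and 0 of 22502 genes, or 0%, passed with SCA1 mice higher. At an adjusted p under 0.05 with no limit on the fold change, the counts were again 1 and 0. At an unadjusted p under 0.05, 480 genes (2.13%) were lower and 470 (2.09%) higher in SCA1 mice, together 950 genes or 4.22% of those tested. DESeq2 with the batch as a covariate called 3 genes lower and 0 higher at the same thresholds, and ComBat-seq followed by DESeq2 called 4 and 2.

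Gm15083 (ENSMUSG00000087083.2) lies at chr6:114004789-114052265 on the plus strand and is annotated as antisense. In the 4 SCA1 mice it had 0.961, 1.00, 1.25 and 1.16 CPM, from 69 to 88 counted fragments. In SCA1 S776A mice it had 2.91, 2.06, 2.44 and 3.14 CPM, and in S776A double mice 2.17, 2.20, 2.84 and 2.28 CPM. The lowest of the 8 pooled S776A mice lay above the highest SCA1 mouse, so the groups did not overlap. On the log2 scale the difference was 1.19 (SE 0.15, 95% interval 0.884 to 1.498, adjusted p = 0.000532). Against the same SCA1 mice it was 1.27 (SE 0.17) in SCA1 S776A mice and 1.11 (SE 0.17) in S776A double mice. Without SCA1 mouse 1 the log2 fold change was 1.14 with an adjusted p of 0.0102, just short of the threshold.

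The 4 WT mice of the same batch had 2.60 to 3.77 CPM of Gm15083. SCA1 mice lay 1.52 below WT on the log2 scale (SE 0.17), SCA1 S776A mice 0.26 below (log2 fold change -0.26, SE 0.16) and S776A double mice 0.41 below (log2 fold change -0.41, SE 0.16). Against WT, 39 genes (0.173%) passed in SCA1 mice, Gm15083 among them, 3 (0.0133%) in SCA1 S776A and 6 (0.0267%) in S776A double mice, and in neither of these did Gm15083 pass (adjusted p = 1.00 and 0.619). The difference of S776A double from SCA1 S776A mice, which the pooled comparison does not use, was -0.15 (SE 0.16, unadjusted p = 0.338 from edgeR). In mice without the expanded repeat, Gm15083 had 3.56 to 4.82 CPM in WT S776A homozygous mice and 3.19 to 5.08 CPM in the WT mice of their batch, a log2 fold change of 0.17 (SE 0.15, unadjusted p = 0.266 from edgeR).

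Gm15083 runs antisense to Atp2b2, which encodes a plasma membrane calcium pump that Purkinje cells use, and which was named after its values were seen. Of its 1413 exonic bases, 79 fall within the span of Atp2b2 and 0 within an Atp2b2 exon, and its exons outside that span begin 7687 bases past the boundary of Atp2b2. The counts used carry no strand. Atp2b2 had 636 to 747 CPM in SCA1 mice, 720 to 826 in SCA1 S776A and 664 to 898 in S776A double mice. These ranges overlapped, with a log2 fold change of 0.18 (SE 0.12, unadjusted p = 0.144 from edgeR). The WT mice of the same batch had 860 to 980 CPM of Atp2b2, above every SCA1 mouse. The log2 fold change of SCA1 mice against WT was -0.37.

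The promoter of the called gene, from 250 bases before to 50 bases after the start that RefSeq gives, lies at chr6:114004506-114004805 of GRCm38.p6 on the plus strand. It is printed because Gm15083 is the only gene past the thresholds. RefSeq gives a second start for the gene, whose window is not printed.
Gm15083 promoter: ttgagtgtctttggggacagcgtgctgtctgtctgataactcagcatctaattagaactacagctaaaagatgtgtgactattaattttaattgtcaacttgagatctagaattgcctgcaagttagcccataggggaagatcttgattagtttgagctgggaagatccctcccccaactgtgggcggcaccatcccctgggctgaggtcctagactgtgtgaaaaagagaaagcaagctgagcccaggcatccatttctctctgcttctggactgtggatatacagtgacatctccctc
Promoters were searched on both strands for the Capicua octamers TGAATGAA, TGAATGGA, TCAATGAA and TCAATGGA and for the ROR element TAGGTCA, which the ATXN1 partner RORA binds. Of 13681 tested genes with a promoter in the table, 3.19% held a Capicua octamer and 2.34% a ROR element. Of the 24 genes described next, 20 had a promoter in the table, and 0 of these held either motif.

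Behind Gm15083, the 11 genes with the lowest p among those with SCA1 mice lower by over 0.5 on the log2 scale did not pass the threshold (adjusted p = 0.151 to 0.535). They are described with Gm15083 as 12 genes. In 8 of the 12, all 4 SCA1 mice lay below all 8 pooled S776A mice, against 74 of all 22502 genes (0.329%), and the genes were ranked on these same mice. In all 12, the log2 fold change had the same sign in both S776A genotypes, and the mean of the pooled S776A mice lay between SCA1 and WT. The genes were ranked on the mean of both S776A genotypes over the same SCA1 mice, so such agreement is largely fixed by the ranking. The shares over all genes were not counted, and the values are given side by side only.

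**Figure D1:**
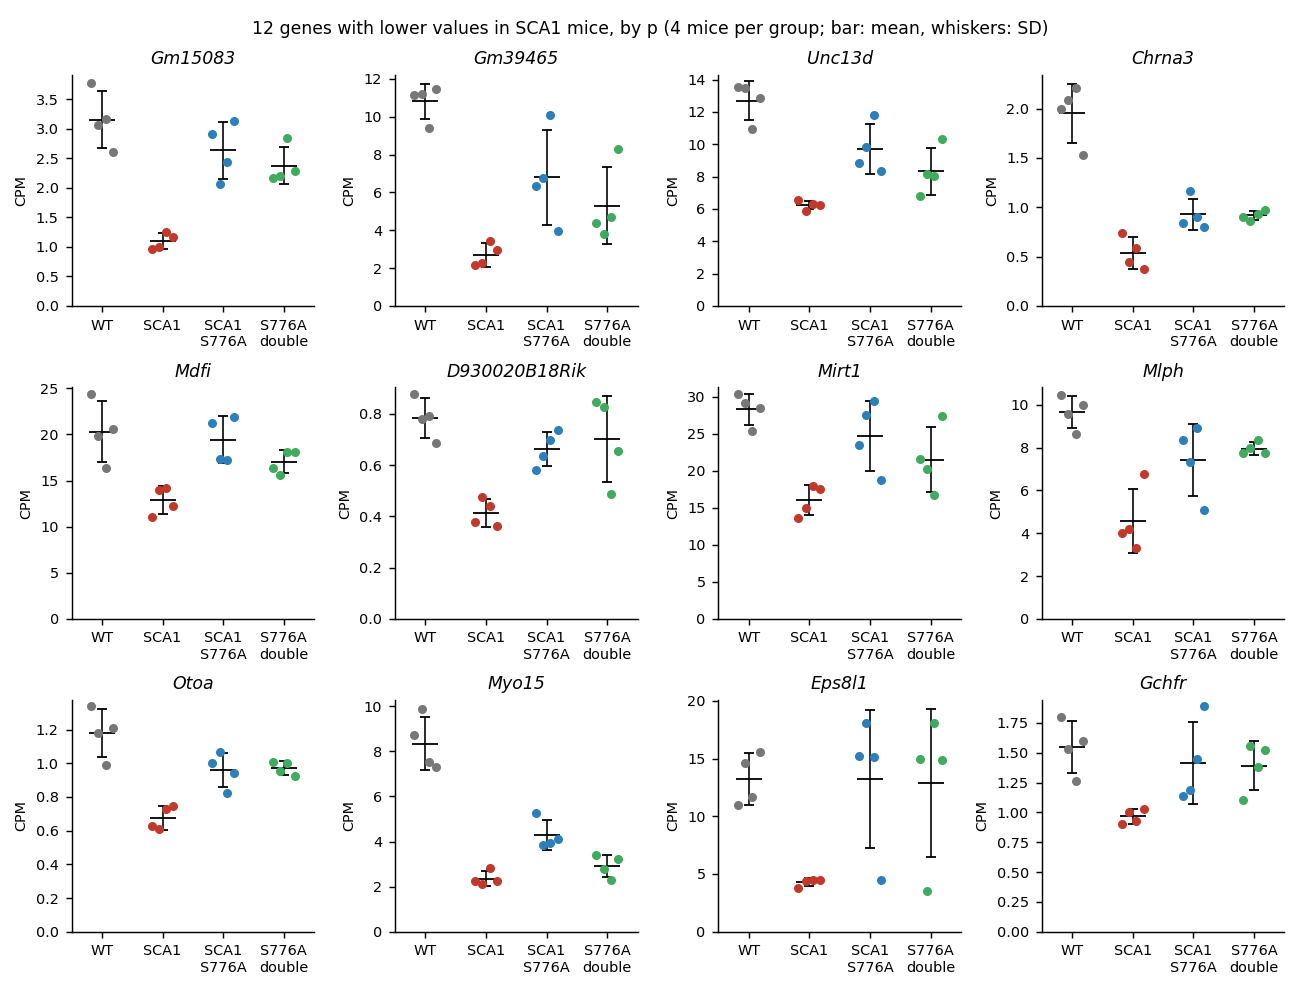
Each panel plots 1 of the 12 genes with lower values in SCA1 mice, in CPM on a linear axis from 0, for the 4 WT mice of the same batch and the 4 SCA1, 4 SCA1 S776A and 4 S776A double mice. Points are mice, bars are means and whiskers are SD. In the panel of Gm15083 the 4 SCA1 mice sit between 0.961 and 1.25 CPM, below all other mice, and in that of Eps8l1 2 of the pooled S776A mice sit with the SCA1 mice.

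The second noncoding RNA was Gm39465 (chr9:122019528-122051463), a long intergenic RNA. It had 2.15, 2.25, 3.45 and 2.96 CPM in SCA1 mice, 6.32, 6.77, 10.1 and 3.98 CPM in SCA1 S776A mice and 4.40, 3.83, 4.72 and 8.29 CPM in S776A double mice. The groups did not overlap, although the pooled S776A mice spread over more than a 2-fold range. Its log2 fold change was 1.16 (SE 0.21, adjusted p = 0.151), and 1.33 and 0.98 in SCA1 S776A and S776A double mice. Without SCA1 S776A mouse 4, which had the second lowest value of the pooled mice, it was 1.25 with an adjusted p of 0.00818, past the threshold. Mirt1, a further long noncoding RNA, had 13.7 to 18.0 CPM in SCA1 mice and 16.8 to 29.4 in the pooled S776A mice, with a log2 fold change of 0.53 (SE 0.13).

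Unc13d encodes Munc13-4, which primes secretory granules for release. It had 6.55, 5.88, 6.29 and 6.26 CPM in SCA1 mice, 8.82, 9.82, 11.8 and 8.35 CPM in SCA1 S776A mice and 6.81, 8.16, 8.05 and 10.3 CPM in S776A double mice, without overlap. Its log2 fold change was 0.53 (SE 0.11, adjusted p = 0.245). DESeq2 with the batch as a covariate called it at an adjusted p of 0.00683. Mlph encodes melanophilin, which links Rab27a to a myosin motor. It had 4.01, 4.20, 3.31 and 6.78 CPM in SCA1 mice and 5.10 to 8.91 CPM in the pooled S776A mice, so that SCA1 mouse 4 lay within their range, and its log2 fold change was 0.75 (SE 0.19).

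Chrna3 encodes the alpha3 subunit of neuronal nicotinic acetylcholine receptors. It had 0.738, 0.449, 0.584 and 0.374 CPM in SCA1 mice, from 28 to 53 fragments, and between 0.801 and 1.16 CPM in the pooled S776A mice, without overlap. Its log2 fold change was 0.78 (SE 0.16, adjusted p = 0.245), with 0.79 in SCA1 S776A and 0.78 in S776A double mice. WT mice of the batch had 1.53 to 2.21 CPM, above every mouse with the expanded allele. Of the 11 nicotinic receptor genes tested, 6 had a log2 fold change above 0, near the 50.7% of all genes. An unadjusted p under 0.05 with SCA1 mice lower was found for 3, against 2.13% of all genes, namely Chrna3, its neighbour Chrnb4 (0.64, SE 0.23) and Chrna6 (0.65, SE 0.31). Chrnb4 and Chrna6 had low means over the 12 mice, of 0.66 and 0.26 CPM. Against WT, SCA1 mice had log2 fold changes of -1.86 in Chrna3, -1.89 in Chrnb4 and 0.08 in Chrna6. The median of the list was 0.03.

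Myo15, an unconventional myosin of hair cell stereocilia, had 2.24, 2.11, 2.84 and 2.25 CPM in SCA1 mice, 5.28, 3.87, 3.95 and 4.10 CPM in SCA1 S776A mice and 3.40, 2.80, 2.30 and 3.22 CPM in S776A double mice. All 4 SCA1 S776A mice lay above the SCA1 mice, while 2 of the 4 S776A double mice lay within the range of the SCA1 mice. Over SCA1 mice the log2 fold change was 0.87 (SE 0.17) in SCA1 S776A and 0.31 (SE 0.18) in S776A double mice. The 2 genotypes differed by -0.55 (SE 0.17, unadjusted p = 0.00322 and adjusted p = 1.00). Otoa, which encodes otoancorin, had 0.608 to 0.749 CPM in SCA1 mice and 0.827 to 1.07 CPM in the pooled S776A mice, without overlap, and a log2 fold change of 0.51 (SE 0.13).

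The remaining genes with lower values in SCA1 mice were Mdfi, D930020B18Rik, Gchfr and Eps8l1. Mdfi, an inhibitor of myogenic transcription factors, had 11.1 to 14.2 CPM in SCA1 mice and 15.6 to 21.9 CPM in the pooled S776A mice. D930020B18Rik, a coding gene, had 0.361 to 0.476 CPM against 0.487 to 0.845 CPM. Gchfr, which encodes a regulator of tetrahydrobiopterin synthesis, had 0.905 to 1.03 CPM against 1.10 to 1.89 CPM. None of these 3 overlapped between the groups, with log2 fold changes of 0.50, 0.72 and 0.54 and adjusted p from edgeR between 0.332 and 0.535.

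Eps8l1, an actin regulator related to EPS8, fell into separate levels by mouse. It had 3.80, 4.39, 4.50 and 4.45 CPM in SCA1 mice, 15.2, 18.1, 15.2 and 4.44 CPM in SCA1 S776A mice and 14.9, 3.49, 18.1 and 14.9 CPM in S776A double mice. SCA1 S776A mouse 4 and S776A double mouse 2 were at the level of the SCA1 mice, and the other 6 had 14.9 to 18.1 CPM, beside 11.0 to 15.6 CPM in WT mice. Over all 12 mice the log2 fold change was 1.60 (SE 0.41, adjusted p = 0.530).

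No gene passed the threshold with SCA1 mice higher, and the 12 genes ranked first in that direction had adjusted p between 0.336 and 0.967 from edgeR. In 1 of the 12, all SCA1 mice lay above all pooled S776A mice, against 35 of all 22502 genes (0.156%). The mean of the pooled S776A mice lay between SCA1 and WT in 8 of the 12, and that of WT lay between the other 2 in 4. These genes too were ranked on the same SCA1 mice, so the counts are description only.

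**Figure D2:**
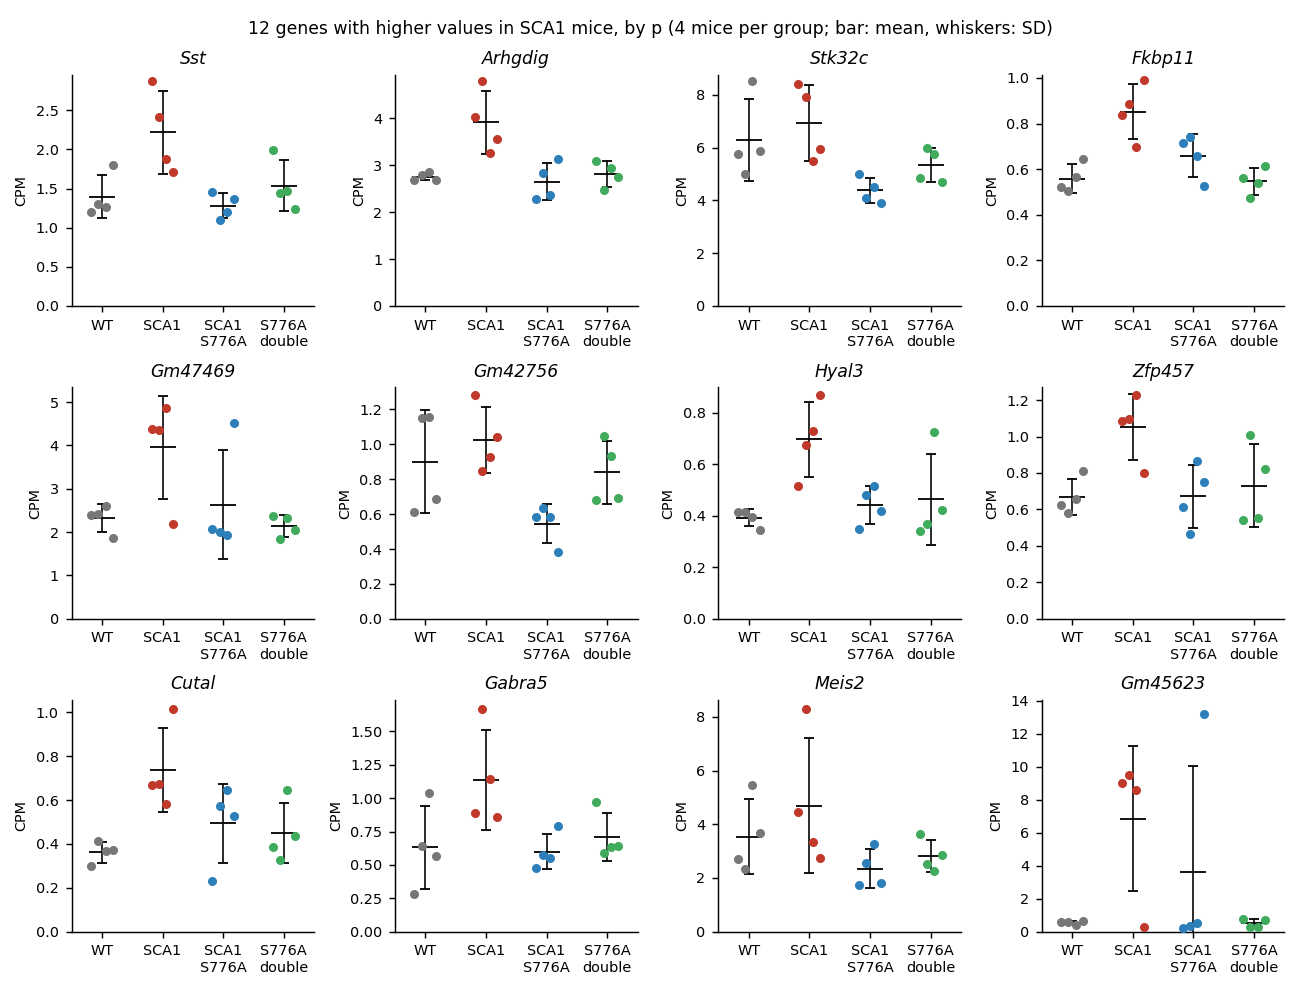
Each panel plots 1 of the 12 genes with higher values in SCA1 mice, in CPM on a linear axis from 0, for the same 16 mice. Points are mice, bars are means and whiskers are SD. Arhgdig is the only one in which the SCA1 mice, from 3.26 CPM upward, lie above every pooled S776A mouse, and in Gm45623 and Gm47469 SCA1 mouse 4 sits low and SCA1 S776A mouse 4 high.

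Arhgdig, which encodes a GDP dissociation inhibitor, had 4.03, 4.81, 3.26 and 3.57 CPM in SCA1 mice, 2.29 to 3.13 CPM in SCA1 S776A mice and 2.46 to 3.10 CPM in S776A double mice. The log2 fold change of the pooled S776A mice was -0.52 (SE 0.12, adjusted p = 0.347). Sst, the neuropeptide somatostatin of inhibitory interneurons, had the lowest p of the 12, with 2.87, 2.42, 1.88 and 1.71 CPM in SCA1 mice and 1.10 to 2.00 CPM in the pooled S776A mice. It had a log2 fold change of -0.66 (SE 0.16, adjusted p = 0.336). Gabra5, a GABA-A receptor subunit, had 0.856 to 1.66 CPM in SCA1 mice and 0.480 to 0.974 CPM in the pooled S776A mice, with a log2 fold change of -0.80 (SE 0.26).

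The other coding genes of this direction were Stk32c (a protein kinase, log2 fold change -0.52), Fkbp11 (a prolyl isomerase of the endoplasmic reticulum, -0.51), Hyal3 (of the hyaluronidase family, -0.62), Zfp457 (a zinc finger protein, -0.58), Cutal (-0.64), Meis2 (a homeobox transcription factor, -0.87) and Gm45623. The antisense gene Gm42756 had 0.845 to 1.28 CPM in SCA1 mice, 0.381 to 0.634 CPM in SCA1 S776A mice and 0.681 to 1.05 CPM in S776A double mice. The SCA1 S776A mice lay below all SCA1 mice and the S776A double mice overlapped them. The 2 S776A genotypes differed by 0.62 (SE 0.21, unadjusted p = 0.00786 and adjusted p = 1.00). Because the counts carry no strand, its reads cannot be told apart from those of a gene on the other strand.

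Among these 12 genes, 3 lie on chromosome 13, as does Atxn1 (45549755 to 45965008), or 25% against 4.05% of all tested genes. This was counted after the genes had been ranked on these same mice, and none of them passed the threshold. Gm45623 and Gm47469 were high in the same 4 mice and are not separate counts, so the share is description only. Of the 12 genes with lower values in SCA1 mice, 0 lie on chromosome 13. Gm45623 starts 10.8 megabases beyond Atxn1, Zfp457 21.3 and Gm47469 28.6. Gm45623 had 9.04, 9.47, 8.60 and 0.294 CPM in SCA1 mice, 0.233, 0.356, 0.542 and 13.2 CPM in SCA1 S776A mice and 0.275 to 0.739 CPM in S776A double mice. Thus 3 SCA1 mice and SCA1 S776A mouse 4 were high, and the other 8 had 0.233 to 0.739 CPM, beside 0.427 to 0.632 CPM in WT mice. Gm47469, a long noncoding RNA, had 4.39, 4.36, 4.88 and 2.19 CPM in SCA1 mice and 2.08, 2.01, 1.92 and 4.52 CPM in SCA1 S776A mice, with the same 4 mice high. The S776A double mice had 1.83 to 2.37 CPM. Zfp457 had 1.09, 1.10, 1.23 and 0.802 CPM in SCA1 mice and 0.464 to 1.01 CPM in the pooled S776A mice. Whether these levels follow the chromosome carried with the edited or unedited allele was not tested, and no genotype at those places is known from these counts.

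**Figure D3:**
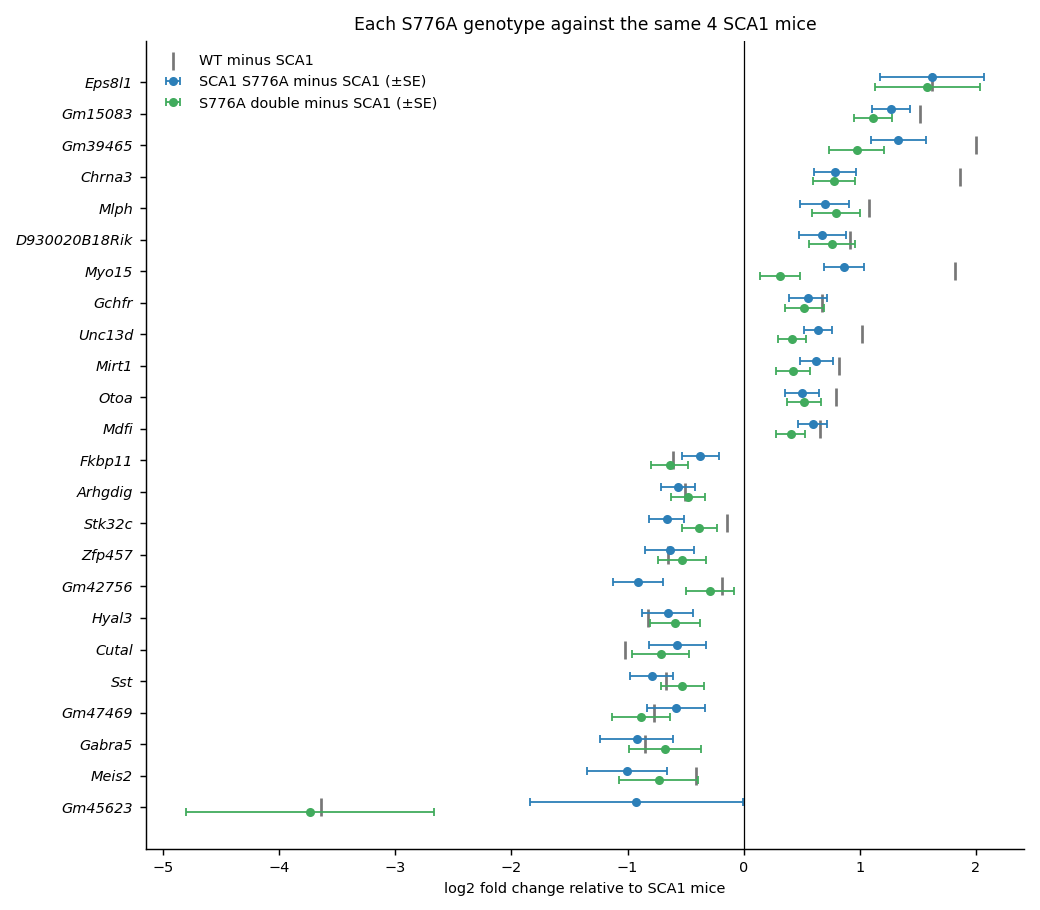
The log2 fold change of SCA1 S776A mice (blue) and S776A double mice (green) over the same 4 SCA1 mice is plotted for the 24 genes, with standard errors as whiskers. Grey ticks mark WT minus SCA1. Both genotypes lie on the same side of 0 for each gene, which the ranking on their mean largely fixes. Myo15, Gm42756 and Gm45623 show the widest gaps between the genotypes relative to their errors.

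Differences between both S776A genotypes are not used by the pooled comparison and were tested by themselves. In edgeR 0 of the 22502 genes passed the thresholds (0%), and 666 (2.96%) had an unadjusted p under 0.05. Of the 24 genes, 3 did, namely Myo15, Gm42756 and Gm45623 (log2 difference of S776A double from SCA1 S776A mice -2.81, SE 1.05, unadjusted p = 0.0156 from edgeR). The last of these rests on SCA1 S776A mouse 4. Among the 12 genes with lower values in SCA1 mice, 9 had a larger log2 fold change over SCA1 mice in SCA1 S776A mice. Among the 12 with higher values in SCA1 mice, 8 had the larger change in SCA1 S776A mice. The share over all genes was not counted and the genes share the same mice, so these counts do not rank the genotypes.

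The WT S776A homozygous mice and the WT mice of their batch do not enter the contrast of the pooled comparison. They do enter its expression filter and its estimate of the spread. With S776A on 2 unexpanded alleles, edgeR called 0 of 22502 genes (0%) and 2246 (9.98%) had an unadjusted p under 0.05. Homozygous mouse 4 stood apart, with 6.73% of fragments on mitochondrial genes against 3.35% to 4.82% in the other 7 mice of the batch, and without it edgeR called 0 of 22911 genes and 612 (2.67%) had an unadjusted p under 0.05. Of the 12 genes with lower values in SCA1 mice, 4 had an unadjusted p under 0.05, with a lowest adjusted p of 0.485 from edgeR. These were D930020B18Rik (log2 fold change 0.45, SE 0.19), Gchfr (0.34, SE 0.15) and Chrna3 (0.34, SE 0.16), which had higher values in homozygous mice, and Myo15 (-0.41, SE 0.18), which had lower ones. Without mouse 4 only D930020B18Rik (0.53, unadjusted p = 0.012) and Myo15 (-0.43, unadjusted p = 0.0333) of these 4 remained under 0.05 in edgeR. Of the 12 genes with higher values in SCA1 mice, 0 did.

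The 30 Purkinje cell genes, a list of cell type genes from general knowledge, had higher values in the pooled S776A mice as a group, although no member passed the threshold (lowest adjusted p = 0.427). Of 30 members, 29 had a log2 fold change above 0, against 11404 of all 22502 genes (50.7%). Their median was 0.18, against 0.0015 over all genes tested, and 0.18 and 0.17 in SCA1 S776A and S776A double mice. An unadjusted p under 0.05 with SCA1 mice lower was found for 13 of 30 members, against 2.13% of all genes, and for 0 members with SCA1 mice higher. Members that share a cell type are not independent of each other. In a whole cerebellum, fewer Purkinje cells and less RNA per Purkinje cell cannot be told apart.

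**Figure D4:**
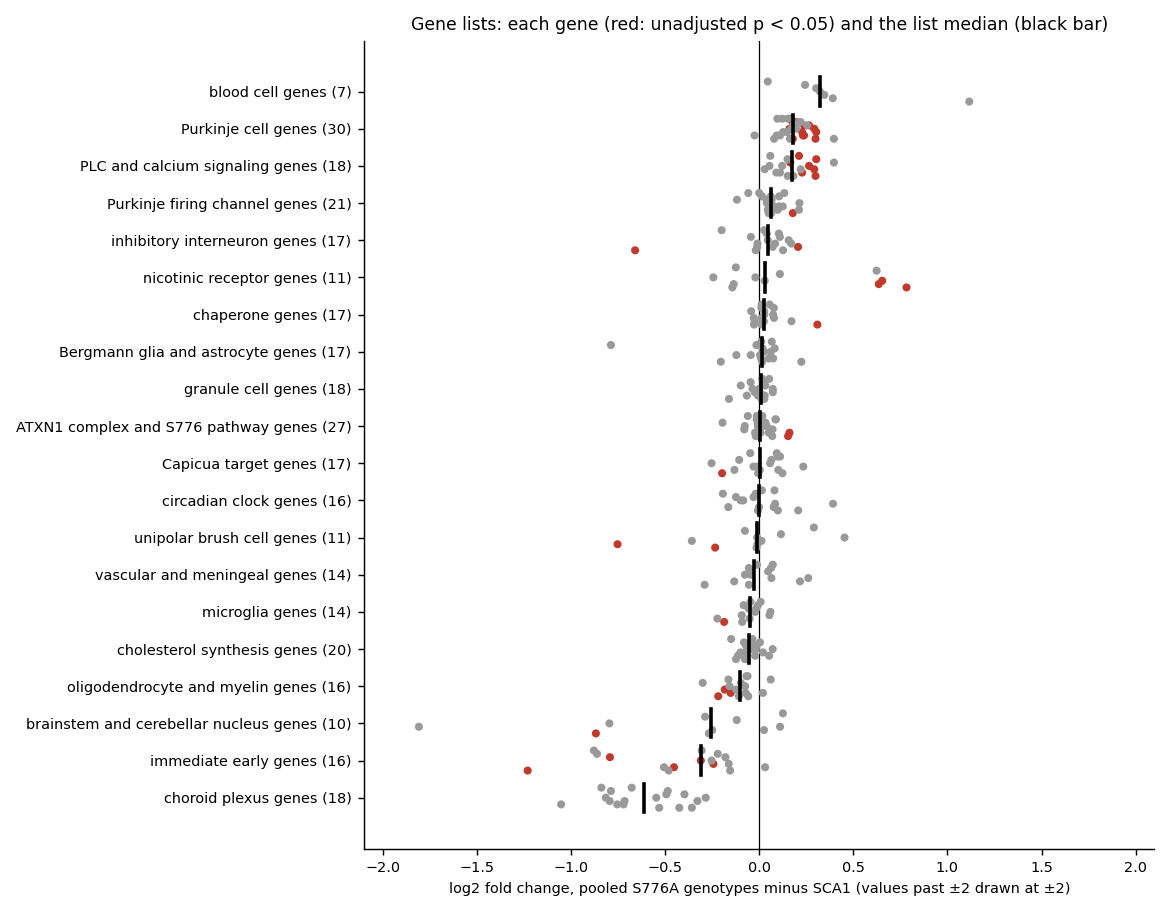
Each point is a gene of 1 of 20 lists, placed by its log2 fold change of the pooled S776A mice over SCA1 mice, red where the unadjusted p was under 0.05, and black bars are list medians with the number of genes tested in parentheses. The Purkinje cell genes and the phospholipase C and calcium signaling genes sit right of 0 with medians of 0.18 and 0.17, and the immediate early genes (-0.31) and choroid plexus genes (-0.61) sit left of it.

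Aldoc and Car8 were among the Purkinje cell genes with the lowest p. Aldoc, the glycolytic enzyme known as zebrin II that marks stripes of Purkinje cells and is also made by astrocytes, had 1469 to 1628 CPM in SCA1 mice and 1660 to 1990 CPM in the pooled S776A mice, with a log2 fold change of 0.23 (SE 0.06). Car8, a protein that binds the inositol trisphosphate receptor, had 1327 to 1527 CPM against 1515 to 1833 CPM and a log2 fold change of 0.23 (SE 0.06).

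In 5 of the 30 Purkinje cell genes all SCA1 mice lay below all pooled S776A mice, against 0.329% of all genes. Among them were Aldoc, Homer3, Plcb3 and Lhx5, the last 3 named after their values were seen. Calb1, the calcium-binding protein calbindin, had 898, 978, 1059 and 993 CPM in SCA1 mice and 1024, 1141 and 1212 CPM as the lowest, median and highest of the pooled S776A mice. A single pooled S776A mouse lay below the highest SCA1 mouse. Calb1 had a log2 fold change of 0.20 (SE 0.07, adjusted p = 0.90), and an exact two-sided permutation test of this gene alone gave p = 0.00404.

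A list of 18 phospholipase C and calcium signaling genes of the parallel fiber synapse shares 11 members with the Purkinje cell genes, 61.1% of the former and 36.7% of the latter. All 18 had a log2 fold change above 0 (50.7% of all genes), with a median of 0.17, and 7 had an unadjusted p under 0.05 with SCA1 mice lower (2.13% of all genes). The 7 members outside the Purkinje cell list had a median of 0.09. Rgs8, a regulator of G protein signaling, had 949, 1084, 980 and 903 CPM in SCA1 mice and 1062 to 1320 CPM in the pooled S776A mice, and a log2 fold change of 0.29 (SE 0.09). Itpr1, the inositol trisphosphate receptor, had a log2 fold change of 0.22 (SE 0.14) and Plcb4, the phospholipase, one of 0.11 (SE 0.06), and both were named after their values were seen. The 21 ion channel genes of Purkinje firing had a median of 0.06, with 18 above 0 and 1, Kcnma1, at an unadjusted p under 0.05 (log2 fold change 0.18, SE 0.07), against the same shares of all genes.

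The mean log2 level of the Purkinje cell genes, set against the mean of the 4 WT mice of the batch, lay between -0.38 and -0.28 in SCA1 mice and between -0.27 and -0.03 in the pooled S776A mice, without overlap. WT mice of the batch lay between -0.06 and 0.12. The median of the list was -0.32 for SCA1 mice against WT, -0.14 for SCA1 S776A mice and -0.14 for S776A double mice. Over the 24 alternative settings the median of the pooled comparison stayed between 0.16 and 0.21. In WT S776A homozygous mice, the median of the list against WT was -0.14, and -0.05 without mouse 4. Their mean levels on the scale used above were -0.08, -0.03, -0.28 and -0.60, beside -0.15 to -0.02 in the WT mice of their batch, so that mice 3 and 4 lay below these. The mean levels of the phospholipase C and calcium signaling genes overlapped, at -0.42 to -0.26 in SCA1 mice and -0.31 to -0.02 in the pooled S776A mice.

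**Figure D5:**
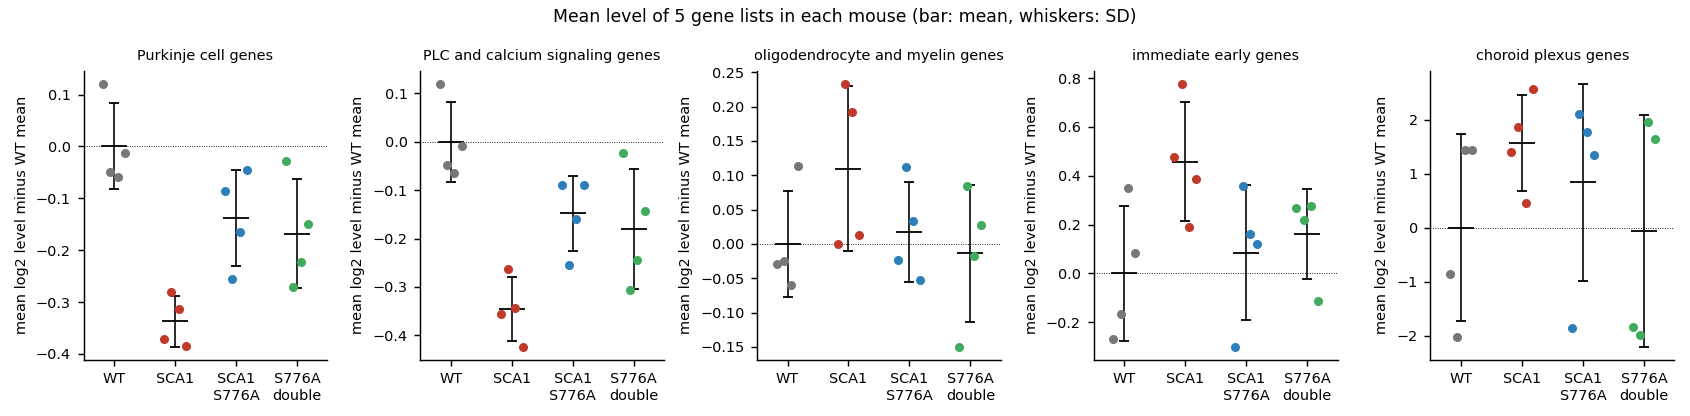
The mean log2 level of 5 gene lists in each mouse is plotted relative to the mean of the 4 WT mice of the batch, with points for mice, bars for means and whiskers for SD. For Purkinje cell genes the SCA1 mice, at -0.28 or lower, lie below all pooled S776A mice, and for choroid plexus genes 3 pooled S776A mice lie below -1.8 while no SCA1 mouse lies below 0.45.

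Lists of the other cerebellar cell types had medians closer to 0. The medians were 0.01 for 18 granule cell genes, 0.05 for 17 inhibitory interneuron genes, 0.02 for 17 genes of Bergmann glia and astrocytes, -0.01 for 11 unipolar brush cell genes, -0.05 for 14 microglia genes and -0.03 for 14 vascular and meningeal genes. An unadjusted p under 0.05 was found for 0 granule cell and 0 Bergmann glia and astrocyte genes, and for 2 unipolar brush cell genes with SCA1 mice higher (2.09% of all genes), Calb2 (log2 fold change -0.23) and Lmx1a (-0.75). Of the 11 unipolar brush cell genes, 7 lay below 0 and 4 above it, among the latter Eomes (0.29, SE 0.34). The astrocyte gene Gfap had 157.3 to 208.1 CPM in SCA1 mice and 162 to 239 CPM in the pooled S776A mice (log2 fold change 0.004, SE 0.09). The 16 oligodendrocyte and myelin genes had a median of -0.10, with 14 below 0, against 11098 of all 22502 genes, and 3 at an unadjusted p under 0.05 with SCA1 mice higher, against 2.09% of all genes, namely Olig2 (-0.22, SE 0.08), Mbp (-0.15, SE 0.06) and Sox10 (-0.18, SE 0.08).

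Genes tied to ATXN1 itself gave no list-wide difference. Of 27 genes of the ATXN1 complex and the S776 pathway, 14 had a log2 fold change above 0 (50.7% of all genes), with a median of 0.01. An unadjusted p under 0.05 with SCA1 mice lower was found for 2 (2.13% of all genes), Ywhah, a 14-3-3 protein (0.15, SE 0.05), and Rora, a nuclear receptor of Purkinje cells (0.16, SE 0.07). Ywhah had 900 to 987 CPM in SCA1 mice and 1001 to 1140 CPM in the pooled S776A mice, without overlap. Of 17 Capicua target genes, 9 were above 0 (50.7% of all genes), with a median of 0.003. An unadjusted p under 0.05 with SCA1 mice higher (2.09% of all genes) was found for 1, the signaling inhibitor Spry1 (log2 fold change -0.20, SE 0.07). The 17 chaperone genes had a median of 0.02, with 1, Hspa1b (0.31, SE 0.13), at an unadjusted p under 0.05 with SCA1 mice lower (2.13% of all genes). The medians were -0.06 for 20 cholesterol synthesis genes and -0.004 for 16 circadian clock genes.

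Immediate early genes, which neurons switch on within minutes of activity, had lower values in the pooled S776A mice. Of 16 members, 15 had a log2 fold change below 0, against 11098 of all 22502 genes, with a median of -0.31. An unadjusted p under 0.05 with SCA1 mice higher was found for 5, against 2.09% of all genes, while none passed the adjusted threshold (lowest adjusted p = 0.650). Members of such a list are not independent of each other. Over the 24 alternative settings the median of the list lay between -0.37 and -0.24, the latter without SCA1 mouse 2. Junb had 19.5, 17.9, 13.0 and 13.1 CPM in SCA1 mice and 9.17 to 14.2 CPM in the pooled S776A mice, with a log2 fold change of -0.45 (SE 0.16). Btg2 had -0.24 (SE 0.10). Egr2, at about 0.1 CPM, had -1.23 (SE 0.37). Their summed level was 303 to 519 CPM in SCA1 mice, 197 to 361 in SCA1 S776A mice, 240 to 336 in S776A double mice and 223 to 371 in the WT mice of the batch, so the groups overlapped. In WT S776A homozygous mice, which lack the expanded repeat, the median of the list against WT was -0.74. The mean log2 levels of these mice on the scale used above were 0.16, -0.46, -0.37 and -0.23. The WT mice of their batch had 0.20 to 0.58.

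The choroid plexus, tissue beside the cerebellum that can be carried over in dissection, differed between mice of each S776A genotype. Of 18 choroid plexus genes, 18 had a log2 fold change below 0, against 11098 of all 22502 genes, with a median of -0.61, and 0 an unadjusted p under 0.05. Their summed level was 1513 to 7709 CPM in SCA1 mice, 203 to 5270 in SCA1 S776A mice, 183 to 4982 in S776A double mice and 178 to 3025 in the WT mice of the batch, and 0 of the 18 genes had a count of 0 in any of these mice. Without the 3 mice of low level (SCA1 S776A mouse 1 and S776A double mice 1 and 2) the median of the list was -0.00074. Gm15083 was the only gene called without these mice, and also with the choroid plexus level as a covariate. Blood cell genes had a median of 0.32 over 7 members, which was 0.62 in SCA1 S776A and 0.05 in S776A double mice, with a summed level of 68.4 to 141 CPM in SCA1 mice and 85.3 to 206 CPM in the pooled S776A mice. Brainstem and cerebellar nucleus genes had a median of -0.26 over 10 members, among them Meis2, and the list medians were -0.76 in SCA1 S776A and -0.11 in S776A double mice. The part of these tissues in the named differences was not tested gene by gene.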

How the data were processed

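Each of the 24 mice gave 1 cerebellar RNA library. After trimming (Trimmomatic 0.36), the authors aligned reads with STAR 2.7.2d to GRCm38.p6 and deposited STAR's counts per gene, not normalized and before their batch correction. The unstranded counts of 54232 genes were used, of which 54165 matched GENCODE M21. The batch was inferred by k-means clustering (k of 2, mean silhouette 0.634) on 4 technical shares of each library. Counts were normalized by TMM and fitted over all 24 mice with genotype and batch in edgeR 4.0.16 (robust quasi-likelihood, R 4.3.3), on genes kept by its expression filter. The contrast was the mean of SCA1 S776A and S776A double minus SCA1. A positive log2 fold change means a lower value in SCA1 mice. The code was tested on simulated data.

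Mouse numbers follow accession order and only name mice. Within the 3 genotypes, the 18 pairs of mice had a chi-square of 11.5 to 62.8 times its degrees of freedom, so none was a duplicate. The labels do not name litters, and p-values measure the spread between these mice.

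Named genes were Atxn1, Atxn1l, Cic, Calb1, Gfap and Gapdh, every called gene, filled to 12 per direction by the lowest p among genes with an absolute log2 fold change over 0.5 and a mean over 0.5 CPM, and up to 3 genes of each list, besides the 3 of those 24 with the lowest p in each of the 2 other tests. The genotypes compared, the gene lists and the tests were chosen with earlier results of these data known. Alternatives were RLE factors, other filters, DESeq2 1.42.0, ComBat-seq of sva 3.50.0, fits of fewer mice, covariates and leaving out each of the 12 mice. Leaving out the mice of low choroid plexus level, or WT S776A homozygous mouse 4, was added after seeing the data. Some features of the count files, members of the lists among them, are not reported here.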

Additional observations from a re-analysis of the deposited data

Results flagged for a closer look

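Of 105 groups of 4 mice examined for a mouse far from the other 3, 9 were set apart by Dixon's criterion (the gap to the nearest mouse against the whole range), where chance alone gives about 1 in 20, or 5.25. They cover the 24 ranked genes, the fixed genes and 5 list levels in each of the 3 genotypes. All values here are log2 CPM unless said otherwise.

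Eps8l1 was set apart in every genotype, at 1.93 in 1 SCA1 mouse against 2.13 to 2.17 in the others, at 2.15 in SCA1 S776A mouse 4 against 3.92 to 4.18, and at 1.80 in S776A double mouse 2 against 3.90 to 4.18. Gm45623 was at -1.77 in SCA1 mouse 4 against 3.10 to 3.24 in the other SCA1 mice. Gm47469 was at 1.13 in SCA1 mouse 4 against 2.12 to 2.29, and at 2.18 in SCA1 S776A mouse 4 against 0.944 to 1.06. Gabra5 was at -0.038 in 1 S776A double mouse against -0.762 to -0.642. Gapdh, a housekeeping enzyme with a log2 fold change of -0.04, was at 10.5 in 1 SCA1 S776A mouse, a gap of 0.915 of a narrow range. The mean log2 level of the immediate early genes relative to WT was -0.115 in 1 S776A double mouse against 0.22 to 0.275 in the others.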

How the results depend on the processing

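The count of genes called with SCA1 mice lower was 1, and under the alternatives 3 with DESeq2 and a batch term, 4 with ComBat-seq then DESeq2, 2 at an adjusted p under 0.1 with no fold limit, and 0 to 2 when each mouse was left out (0 without SCA1 mouse 1, 2 without SCA1 S776A mouse 4). With SCA1 mice higher it was 0, and 2 with ComBat-seq then DESeq2 and 0 to 1 when each mouse was left out, the 1 being Gm45623 without SCA1 S776A mouse 4 (-3.94, adjusted p = 0.00649 from edgeR). At an adjusted p under 0.05, 1 gene lower and 0 higher in edgeR became 16 and 7 with DESeq2 and 16 and 12 with ComBat-seq then DESeq2; the cause was not tested. Gm15083 lay between 1.14 and 1.26 in all 24 alternatives, with an adjusted p of 6.17e-11 to 0.0102, and was called in all but the one without SCA1 mouse 1. Fitted on the 12 mice alone with 3 genotypes, its adjusted p from edgeR was 0.00674. Gm39465 and Unc13d were called by both DESeq2 settings, and Gm39465 also without SCA1 S776A mouse 4. Atxn1l changed sign without a filter on low counts (0.000402) and lay between -0.0464 and 0.0395 when each mouse was left out, and Gfap lay between -0.0553 and 0.0837. These and 1981 further values of named genes that kept their direction and side of the threshold come from the settings that gave a value, and D930020B18Rik, Fkbp11, Hyal3 and Cutal had none under the stricter count filter. No paired analysis was possible because the labels do not name litters or otherwise link mice of different genotypes. The 8 mice against 4 limit the precision: genes with few fragments have standard errors well above the median of 0.12.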
